A study of Mus musculus with 24 samples.

Results

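The 47 genes described here encode core proteins of the splicing machinery, proteins that guide the choice of splice sites, and their relatives in other RNA processing: SR proteins, hnRNP proteins, subunits of the splicing factors SF3a and SF3b, proteins of the small nuclear ribonucleoproteins (snRNPs), the U2AF subunit U2af2 and LSm proteins. They are all gene-level transcript clusters, of 23332 on the array, whose single platform symbol starts with Srsf, Hnrnp, Sf3a, Sf3b, Snrp or U2af, or with Lsm followed by a digit. The rule used no measured value. It took 10 SR, 13 hnRNP, 8 SF3a and SF3b, 4 snRNP, 1 U2AF and 11 LSm clusters. A further 9 clusters carry such a symbol together with a second one, among them those of Snrpn, Snrpa, Hnrnpf, Hnrnpa3 and Sf3a1, and were left out. At the exon level 46 of the 47 genes have probe sets of their own symbol, 572 in all of 229581, and Srsf12 has none.

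Cerebellum and skeletal muscle were taken from C57BL/6 mice at 1 month of age that were wild-type or lacked *Usp15*, the gene of a deubiquitinating enzyme. The sources read here do not state how the *Usp15* allele was made. Total RNA of each sample went on 1 Affymetrix mouse exon array, 3 arrays for each of the 4 groups, and the authors deposited log2 signals of all 12 arrays per gene and per probe set. Whether the 3 arrays of a group stand for 3 different mice is not in the labels, and p-values reflect only the scatter among these arrays, which may be technical. In whole tissue, a difference in the share of cells that make an RNA and a difference in its amount per cell cannot be told apart.

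Splicing takes place in the spliceosome, which is built from U1, U2, U4, U5 and U6 snRNPs and joins exons after the removal of the intron. SR proteins bind exons and mostly favour their inclusion. The hnRNP proteins bind nascent RNA and often act against a splice site. U2AF and SF3a and SF3b recognise the end of the intron and the branch point, the Sm proteins (Snrpd1, Snrpd3) form the ring of most snRNPs, and Lsm2 to Lsm8 form the related ring of U6 snRNP. USP15, brought in by SART3, is known to remove ubiquitin from PRPF31, a protein of the snRNPs that enter the spliceosome before catalysis, and the comparison of genotypes asks whether RNA levels of the splicing proteins themselves moved with its loss.

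The arrays carried the marks of their labels. *Usp15* itself was lower on all *Usp15*-deficient arrays, by 0.52 in cerebellum (log2, SE 0.09) and by 1.87 in muscle (SE 0.15), although neither difference passed the adjustment over all clusters (limma, adjusted p = 0.996 and 0.273). All 10 cerebellar markers were higher in cerebellum and all 8 measured muscle markers higher in muscle, in both genotypes. The median of all clusters was 6.09 to 6.17 on the cerebellar arrays and 5.41 to 5.51 on the muscle arrays. The log2 of the summed linear signals of 3 slow-fibre markers ran from 6.61 to 11.28 in wild-type muscle against 10.58 to 10.84 in *Usp15*-deficient muscle. For each of the 3, wild-type muscle arrays 1 and 2 lay below every other muscle array. Tnnc1, for one, read 4.1, 3.92 and 8.99 in wild-type against 7.8, 8.52 and 8.25 in *Usp15*-deficient muscle. For the choroid plexus markers Ttr and Kl the same sum ran from 7.83 to 12.29 over the cerebellar arrays. In muscle the same sum for 3 adipocyte markers was 8.69 to 9.79 in wild-type and 8.08 to 10.91 without *Usp15*, and Mbp, a myelin gene, read 6.64, 6.66 and 6.85 against 6.94, 8.73 and 7.63. The part of these cell types in the results was not tested.

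Promoter windows of GRCm38.p6 from RefSeq, 250 bases before to 50 after the annotated start, were at hand for 39 of the 47 genes, and the first window listed was used for a gene with several. They were rich in C and G, with a median of 26 CpG dinucleotides against 7 over 27025 windows of all genes and a median GC content of 61% against 52.7%. On either strand, the GC box GGGCGG, the letters bound by Sp1, stood in 76.9% of the members' windows and in 35.9% of all windows. The ETS core CCGGAAG stood in 25.6% against 9.12%, the CRE core TGACG in 38.5% against 21% and the CCAAT box in 48.7% against 37.9%. TATAAA was in 12.8% of the members' windows and in 14.2% of all. The E-box CANNTG was in 61.5% of the members' windows and in 72.1% of all. A match describes the letters only and is no evidence of binding.

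The windows of 3 members that the results below turn on are shown 5′ to 3′ on the gene's own strand, with GC boxes, CCAAT boxes and CRE cores in capitals, whichever strand holds the letters. No ETS core lies in any of them. Srsf12 (chr4:33209022-33209321, + strand) is the member with the highest cerebellum level relative to muscle, Hnrnpab (chr11:51606832-51607131, - strand) is a member higher in muscle, and Hnrnph2 (chrX:134600929-134601228, + strand) had the smallest p by genotype in cerebellum.
Srsf12: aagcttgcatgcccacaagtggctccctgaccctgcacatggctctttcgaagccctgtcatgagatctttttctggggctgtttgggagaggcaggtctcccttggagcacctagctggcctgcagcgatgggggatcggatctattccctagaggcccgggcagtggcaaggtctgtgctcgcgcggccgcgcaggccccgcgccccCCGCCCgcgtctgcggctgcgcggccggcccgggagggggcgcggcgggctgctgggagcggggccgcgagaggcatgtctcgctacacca
Hnrnpab: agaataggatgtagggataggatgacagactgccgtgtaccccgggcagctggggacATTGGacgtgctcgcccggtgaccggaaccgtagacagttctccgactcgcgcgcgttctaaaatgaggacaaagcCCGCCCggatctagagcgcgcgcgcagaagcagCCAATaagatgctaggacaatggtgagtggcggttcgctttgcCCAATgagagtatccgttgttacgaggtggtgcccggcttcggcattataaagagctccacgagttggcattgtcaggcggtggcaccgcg
Hnrnph2: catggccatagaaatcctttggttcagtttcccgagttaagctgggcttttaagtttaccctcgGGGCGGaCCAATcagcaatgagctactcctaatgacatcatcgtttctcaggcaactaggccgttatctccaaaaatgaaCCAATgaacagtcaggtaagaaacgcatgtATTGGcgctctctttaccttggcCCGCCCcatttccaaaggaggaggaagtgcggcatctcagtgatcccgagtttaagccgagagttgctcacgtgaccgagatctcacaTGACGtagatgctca
The Srsf12 window has 26 CpG dinucleotides, 1 GC box and no CCAAT box. The Hnrnpab window has 28 CpG dinucleotides, 1 GC box and 3 CCAAT boxes, and it also has TATAAA once. The Hnrnph2 window has 14 CpG dinucleotides, 2 GC boxes, 3 CCAAT boxes and 1 CRE core.

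The loss of *Usp15* moved no member past the threshold in either tissue. With limma and Benjamini-Hochberg adjustment over all clusters, 0 of the 47 members passed an adjusted p of 0.05 in cerebellum and 0 in muscle, and 0% of all clusters passed in either. At an unadjusted p under 0.05 there were 3 members in cerebellum (Hnrnph2, Lsm10 and Snrpa1; 3.54% of all clusters) and 0 in muscle (3.09% of all clusters). With the replicate number as a block the cerebellar members were Sf3b4 (unadjusted p = 0.0116), Hnrnph2 (0.0143) and Snrpa1 (0.0319), and Lsm10 was at 0.0648 (limma, adjusted p = 0.833 for the first 3). The methods' t-test likewise called 0 after adjustment, with 4 members in cerebellum and 1 in muscle before it. The median standard error of a member's genotype difference was 0.11 in cerebellum and 0.17 in muscle, which gives a median 95% interval of 0.26 and 0.41 to each side. These intervals are unadjusted, and larger differences, such as that of *Usp15* itself in muscle, also missed the threshold after adjustment.

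In cerebellum the means of 42 members were higher and those of 5 lower without *Usp15*, while 61.6% of all clusters were higher. The members' median difference was 0.09 on the log2 scale against 0.04 for all clusters. Means of all 10 SR genes and all 8 SF3a and SF3b genes were on the higher side, with medians of 0.13 and 0.09, as were 11 of 13 hnRNP and 9 of 11 LSm genes. Centring and quantile normalization each left 8 of the 10 SR and 6 of the 8 SF3a and SF3b means higher. The count over all members was 35 after each array was centred on its median and 31 after quantile normalization, when 53.3% and 49.3% of all clusters were higher, and it ran from 32 to 44 when 1 array was left out. All 3 *Usp15*-deficient arrays lay above all 3 wild-type arrays for 7 members (Hnrnph2, Hnrnpll, Lsm10, Lsm4, Sf3b4, Snrpa1 and Srsf2; 5.85% of all clusters) and below them for 0 (3.05% of all clusters). After centring these counts were 6 and 0 (3.91% and 4.5% of all clusters).

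Hnrnph2, an hnRNP H protein that binds runs of G, had the smallest p of the members in cerebellum. Its log2 signal was 7.15, 7.04 and 6.74 on the wild-type against 7.86, 7.37 and 7.79 on the *Usp15*-deficient cerebellar arrays, so that the groups did not overlap. The difference was 0.70 (SE 0.17, 95% interval 0.27 to 1.13, unadjusted p = 0.00688, limma adjusted p = 0.996), and it was 0.58 to 0.85 when 1 array was left out. In muscle the values were 6.08, 6.42 and 6.35 against 6.44, 6.2 and 6.36, which overlap, and the difference was 0.05 (SE 0.14). The difference between the tissues was 0.65 (SE 0.23, unadjusted p = 0.0174, limma adjusted p = 1 for the interaction).

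The 6 probe sets of Hnrnph2 did not share this difference. Their mean log2 changes in cerebellum without *Usp15* were 0.70, 0.30, 0.30, -0.02, -0.11 and -0.13, so that 3 were higher and 3 lower. Probe set 4941593, which had the change of 0.70, read 6.79, 6.82 and 6.43 in wild-type against 7.49, 7.17 and 7.49 in *Usp15*-deficient cerebellum, without overlap. Probe set 4632541 read 7.24, 7.55 and 7.67 in wild-type against 7.43, 7.52 and 7.45 in *Usp15*-deficient cerebellum, and its groups overlapped. The gene-level difference thus matched that of 1 probe set and exceeded those of the other 5.

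The other members with low unadjusted p in cerebellum moved less. Lsm10, a protein of the U7 snRNP that processes histone RNA ends, read 6.01, 6.09 and 5.94 in wild-type against 6.33, 6.15 and 6.29 in *Usp15*-deficient cerebellum (0.24, SE 0.09, unadjusted p = 0.0357, limma). All 4 of its probe sets were higher, with a median of 0.36. Snrpa1, the U2 snRNP protein A′, read 6.84, 7.11 and 7.03 against 7.21, 7.38 and 7.19 (0.27, SE 0.11, unadjusted p = 0.0474, limma), and 10 of its 12 probe sets were higher. Neither pair of groups overlapped, and after centring the arrays the unadjusted p was 0.0636 for Lsm10 and 0.0604 for Snrpa1 (limma). Of the 5 members on the lower side, Hnrnpc, which packages nascent RNA, was lowest, at -0.10 (SE 0.20), and Lsm2, Lsm11, Hnrnpul1 and Snrpd1 had differences of -0.02, -0.02, -0.01 and -0.0043, all within their standard errors. Sf3b4 and Lsm4 were at 0.32 (SE 0.13, unadjusted p = 0.0516, limma) and 0.15 (SE 0.07, unadjusted p = 0.0905). The 3 probe sets of Sf3b4 changed by 0.59, 0.16 and -0.20 in cerebellum, and the identity of its cluster is uncertain, as set out below.

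**Figure D1:**
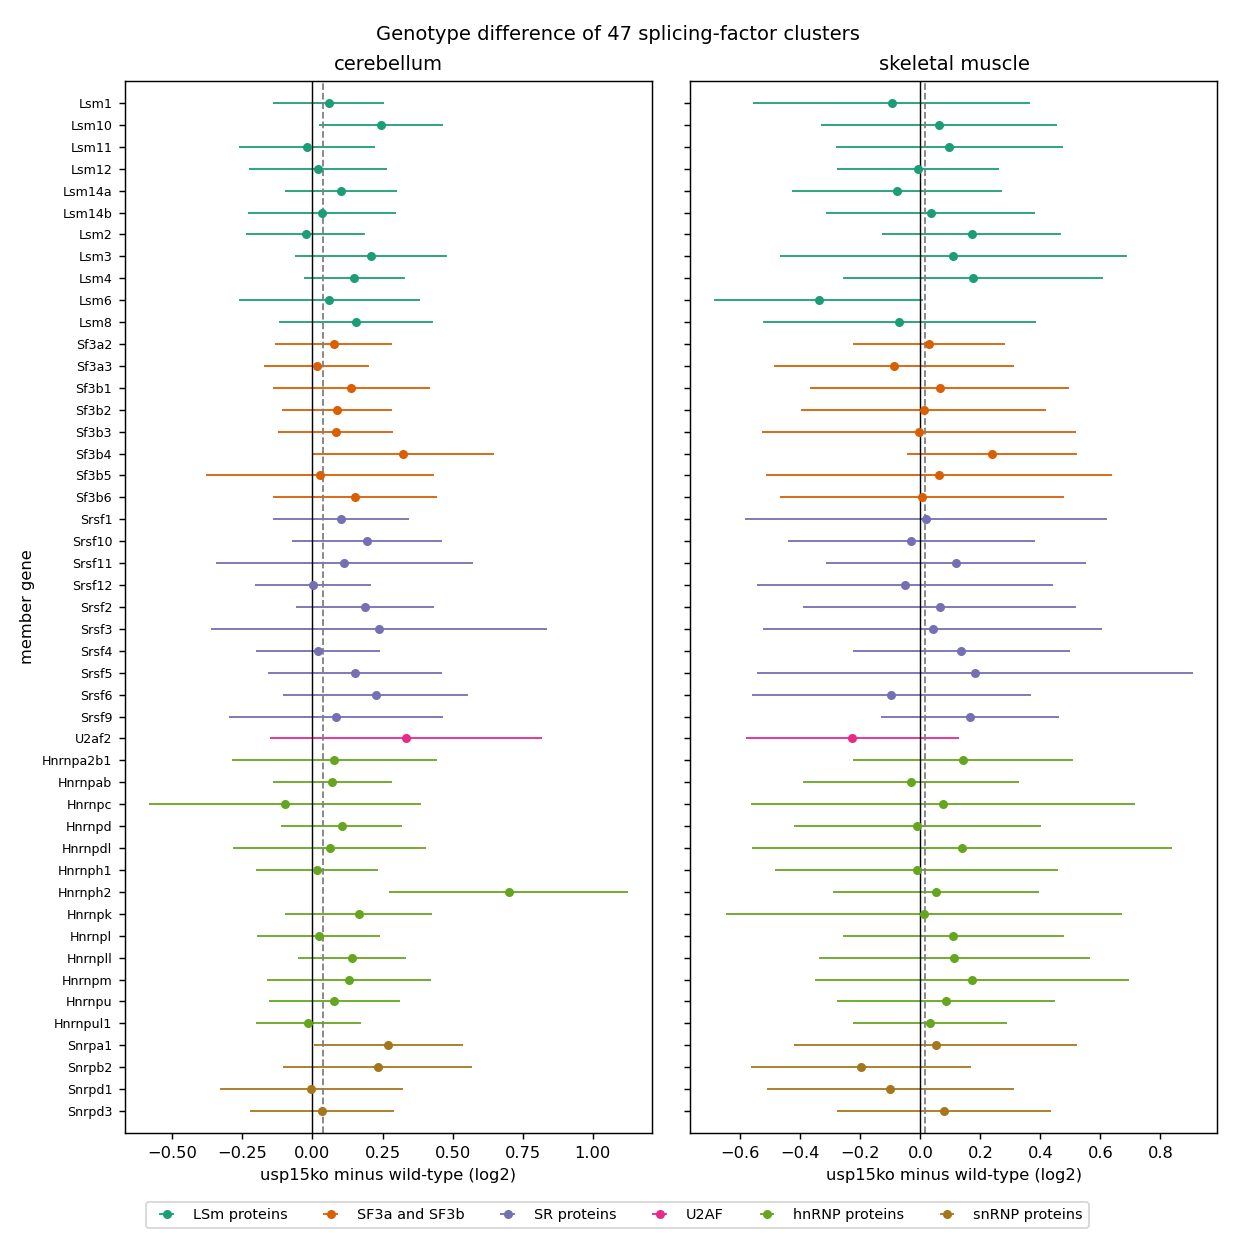
Mean log2 difference of *Usp15*-deficient minus wild-type arrays for each of the 47 genes in cerebellum (left) and skeletal muscle (right), with 95% intervals from limma (n = 3 arrays per group); colours mark the families, the dashed line is the median of all 23332 clusters. In cerebellum 42 points lie right of 0 and Hnrnph2 stands farthest, at 0.70, while in muscle the points lie on both sides and most intervals are wider.

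In muscle 31 members had a higher and 16 a lower mean without *Usp15* (54.1% of all clusters were higher), with a median difference of 0.04 against 0.01 for all clusters. Lsm6, a subunit of the U6 ring, had the smallest p: 7.31, 7.25 and 7.41 in wild-type against 6.74, 7.06 and 7.14 in *Usp15*-deficient muscle, without overlap. Its difference was -0.34 (SE 0.14, unadjusted p = 0.0544, limma adjusted p = 1), and in cerebellum it was 0.06 (SE 0.13). Lsm6 was the only member whose *Usp15*-deficient muscle arrays all lay below wild-type (2.97% of all clusters). Those of Sf3b4 and Srsf9 all lay above (3.38% of all clusters), although the 3 probe sets of Sf3b4 changed by 0.09, 0.49 and -0.09 in muscle. After centring there were again 2 above and 1 below (2.49% and 4.06% of all clusters). The values of Srsf9, an SR protein, were 6.58, 6.84 and 6.83 against 6.86, 6.93 and 6.95, a difference of 0.17 (SE 0.12). The other members of smallest p on the higher side were Sf3b4 (0.24, SE 0.12), Lsm2 (0.17, SE 0.12), Lsm4 (0.18, SE 0.18) and Hnrnpa2b1 (0.14, SE 0.15). Those on the lower side were U2af2 (-0.23, SE 0.15), Snrpb2 (-0.20, SE 0.15), Snrpd1 (-0.10, SE 0.17) and Sf3a3 (-0.09, SE 0.17), with arrays of the genotypes overlapping in each. The interaction of genotype and tissue called 0 members (0% of all clusters), with 1 at an unadjusted p under 0.05, Hnrnph2 (2.91% of all clusters).

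The direction in muscle rested on single arrays. Without wild-type muscle array 1 only 13 of the 47 means were higher in *Usp15*-deficient muscle, and without *Usp15*-deficient muscle array 3 there were 19, while leaving out another array gave 29 to 37. The muscle arrays with the number 1 were low for these genes in both genotypes. Wild-type array 1 held the lowest of the 3 values for 37 of 47 members (47.1% of all clusters), and *Usp15*-deficient array 1 for 35 (43.4% of all clusters). The members' median was 6.61, 7.10 and 7.12 on the wild-type arrays 1 to 3 against 6.68, 6.88 and 7.14 on the *Usp15*-deficient arrays. The median of all clusters on the same arrays was 5.41, 5.45 and 5.48 and 5.43, 5.51 and 5.49. The splicing genes thus differed more between arrays of a genotype than between genotypes.

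Srsf5, an SR protein, and Hnrnpdl, a relative of Hnrnpd, show this spread. Srsf5 read 6.51, 7.32 and 7.12 in wild-type against 6.67, 7.58 and 7.25 in *Usp15*-deficient muscle. Hnrnpdl read 5.90, 6.91 and 6.68 in wild-type against 6.53, 6.42 and 6.96 in *Usp15*-deficient muscle. Array 1 was lowest in both genotypes for Srsf5 and in wild-type alone for Hnrnpdl. Srsf12 ran the other way, with 5.19, 4.62 and 4.65 in wild-type against 5.0, 4.55 and 4.76 in *Usp15*-deficient muscle. In cerebellum the arrays with the number 2 were lowest for 28 wild-type and 30 *Usp15*-deficient members (33.7% and 34% of all clusters), with members' medians of 7.43, 7.23 and 7.39 in wild-type against 7.63, 7.38 and 7.58 in *Usp15*-deficient cerebellum. Whether the shared numbers mark a shared day or batch is not stated, and the cause was not tested.

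**Figure D2:**
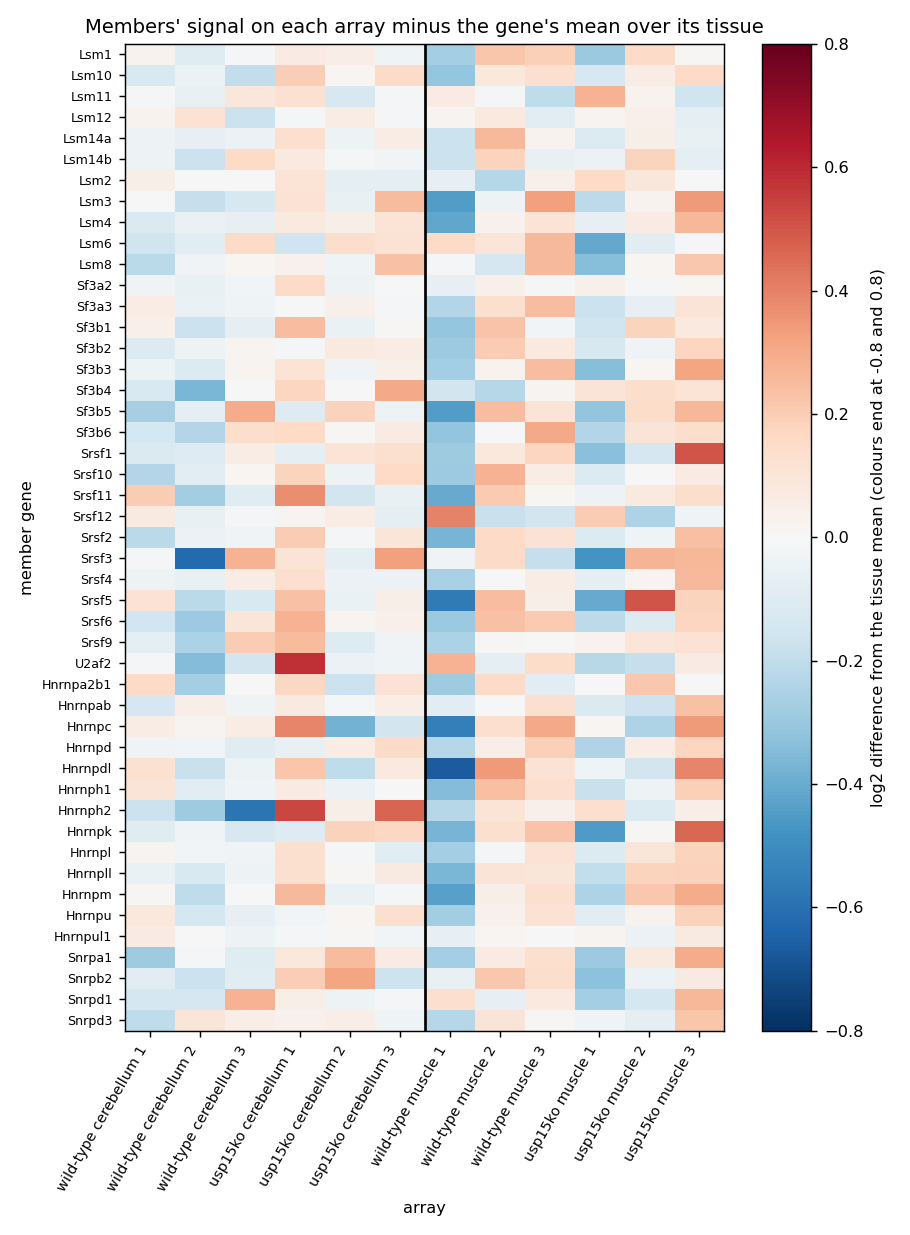
Log2 signal of each of the 47 genes (rows) on each of the 12 arrays (columns) minus the gene's mean over the 6 arrays of its tissue; red is higher, blue lower, and the black line parts cerebellum from muscle. The columns of the muscle arrays with the number 1 are mostly blue in both genotypes, and the row of Hnrnph2 is blue on wild-type and red on *Usp15*-deficient cerebellar arrays 1 and 3.

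The tissues differed far more than the genotypes. On the deposited scale, 31 members passed the threshold in wild-type arrays (67.7% of all clusters), 25 higher in cerebellum and 6 higher in muscle, where 54.6% and 13.1% of all clusters did so. In *Usp15*-deficient arrays 32 passed (69.9% of all clusters), and 28 were higher in cerebellum and 4 in muscle (57% and 12.9% of all clusters). In both genotypes 24 were higher in cerebellum and 4 in muscle (48.8% and 11.5% of all clusters, 60.3% in all), and 19 did not pass in both in 1 direction. The median of all clusters was itself 0.62 higher in cerebellum in both genotypes, and the members' median was 0.48 in wild-type and 0.58 in *Usp15*-deficient arrays. 

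Centring each array on its median turned the counts, to 5 members higher in cerebellum and 15 higher in muscle in both genotypes (16.3% and 25.5% of all clusters, 41.8% in all). Quantile normalization gave 11 and 9 (18.2% and 21.4% of all clusters, 39.6% in all). By family, of the 13 hnRNP genes 10 were higher in cerebellum and 1 in muscle on the deposited scale, and 1 and 2 after centring. With quantile normalization Hnrnpd, Hnrnph1, Hnrnpl, Hnrnpll, Hnrnpm and Hnrnpu passed toward cerebellum in both genotypes, and Hnrnpab toward muscle. Of the 10 SR genes 6 were higher in cerebellum and 0 in muscle, and 1 and 2 after centring. Of the 11 LSm genes 3 were higher in cerebellum and 2 in muscle, and 1 and 7 after centring, and their median difference was 0.02 in wild-type against 0.69 for the hnRNP genes.

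**Figure D3:**
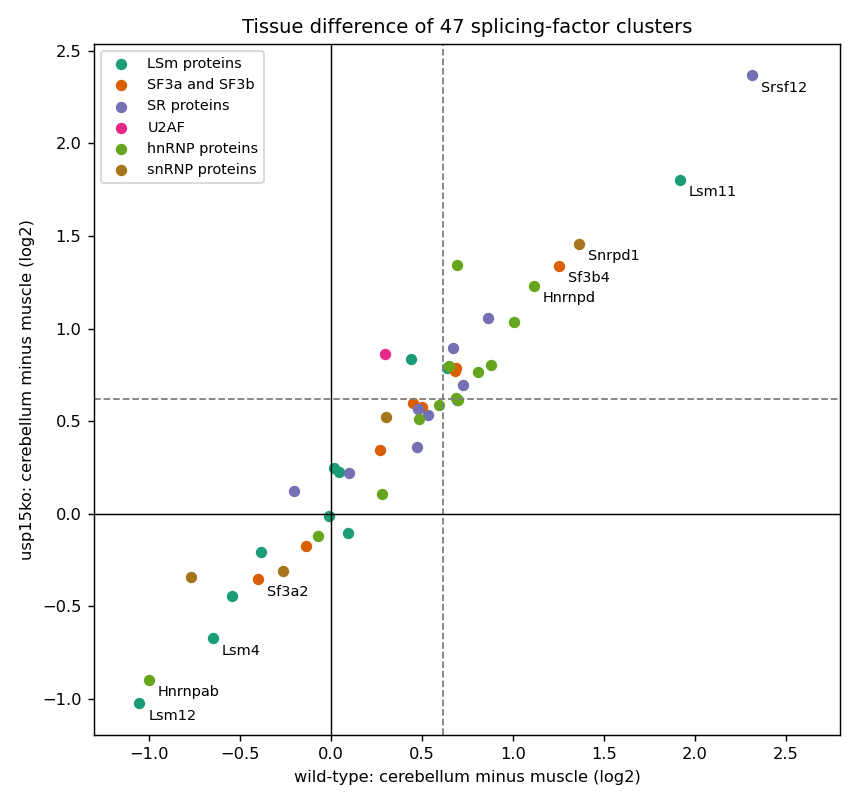
Log2 difference of cerebellum minus muscle for each of the 47 genes in wild-type (x axis) and *Usp15*-deficient arrays (y axis), coloured by family; solid lines mark 0 and dashed lines the median of all 23332 clusters, 0.62 in both genotypes. The named points are the 9 genes past the threshold in both genotypes under all 3 scalings, from Srsf12 at 2.32 and 2.37 to Lsm12 at -1.05 and -1.02.

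Under all 3 scalings and in both genotypes 5 members were higher in cerebellum (13.6% of all clusters) and 4 were higher in muscle (11.1% of all clusters). Those higher in cerebellum were Srsf12, Lsm11, Snrpd1, Sf3b4 and Hnrnpd. Srsf12, an SR-related protein that can oppose other SR proteins, read 7.21, 7.08 and 7.12 in wild-type cerebellum and 5.19, 4.62 and 4.65 in wild-type muscle, and 7.16, 7.2 and 7.06 and 5.0, 4.55 and 4.76 without *Usp15*. Its difference was 2.32 (SE 0.18, a 4.98-fold difference, limma adjusted p = 7.57e-05) in wild-type and 2.37 (SE 0.14, adjusted p = 3.04e-05) in *Usp15*-deficient arrays, and 1.64 and 1.70 after centring.

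Lsm11, the partner of Lsm10 in the U7 snRNP, read 6.94, 6.89 and 7.04 in wild-type cerebellum and 5.16, 5.08 and 4.89 in wild-type muscle. The difference was 1.92 (SE 0.12, limma adjusted p = 3.34e-05), and all 7 of its probe sets were higher in cerebellum. It was 1.80 (SE 0.15) in *Usp15*-deficient arrays. Lsm10 did not follow its partner: its difference was 0.05 (SE 0.15) in wild-type arrays, and 2 of its 4 probe sets were higher. After centring Lsm10 passed toward muscle in both genotypes, at -0.63 in wild-type and -0.44 in *Usp15*-deficient arrays. It also did so after quantile normalization, at -0.58 and -0.38. Snrpd1, a protein of the Sm ring, read 5.19, 5.20 and 5.61 in wild-type cerebellum and 4.06, 3.86 and 4.0 in wild-type muscle. Its difference was 1.36 (SE 0.15) and, without *Usp15*, 1.46 (SE 0.16), whereas Snrpd3 of the same ring was at -0.26 (SE 0.14) and -0.31 (SE 0.12), neither past the threshold. After centring Snrpd3 passed toward muscle in both genotypes, at -0.93 and -0.98.

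Hnrnpd, also called AUF1, binds AU-rich elements and speeds or slows decay of their RNAs. It read 7.46, 7.47 and 7.39 in wild-type cerebellum and 6.09, 6.37 and 6.51 in wild-type muscle, a difference of 1.12 (SE 0.14), against 1.23 (SE 0.14) without *Usp15*. All 13 of its probe sets were higher in cerebellum. Hnrnpll, which represses exons of CD45, had differences of 1.01 (SE 0.16) and 1.03 (SE 0.14), and all 22 of its probe sets were higher. After centring it passed without *Usp15* only (adjusted p = 0.0997 in wild-type and 0.0469 in *Usp15*-deficient arrays, limma).

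The cluster named Sf3b4 was 1.25 (SE 0.14) higher in cerebellum in wild-type and 1.34 (SE 0.11) in *Usp15*-deficient arrays. It read 5.78, 5.54 and 5.91 in wild-type cerebellum and 4.46, 4.38 and 4.63 in wild-type muscle. The identity of the cluster is uncertain: the 5 clusters on each side of it by number all belong to genes of chromosome 15, whereas Sf3b4 is on chromosome 3, and a second cluster carries Sf3b4 together with Ankrd34a. Its 3 probe sets disagreed, with wild-type differences of 1.57, 0.79 and -0.91. The cluster of U2af2 is uncertain in the same way, since 9 of its 10 neighbours by number are on chromosome 13 and the gene is on chromosome 7. Its tissue difference was 0.30 (SE 0.15) in wild-type and 0.86 (SE 0.20) in *Usp15*-deficient arrays, past the threshold in the latter alone. Without *Usp15* it did not pass after centring (0.19, limma adjusted p = 0.466) or quantile normalization (0.39, adjusted p = 0.168).

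Hnrnpab, Lsm12, Lsm4 and Sf3a2 were higher in muscle. Hnrnpab, a relative of Hnrnpd that binds RNA and DNA, read 7.90, 8.09 and 8.01 in wild-type cerebellum and 8.90, 8.98 and 9.11 in wild-type muscle. Its difference was -1.0 (SE 0.12, limma adjusted p = 0.000492), and -0.90 (SE 0.13) without *Usp15*, where it read 8.11, 8.02 and 8.09 in cerebellum and 8.87, 8.82 and 9.22 in muscle. All 14 of its probe sets were lower in wild-type cerebellum. The related genes thus lay at opposite ends, with Hnrnpd higher in cerebellum, Hnrnpab higher in muscle and Hnrnpdl at 0.88 (SE 0.27) and 0.80 (SE 0.19). In neither genotype did Hnrnpdl pass after centring (0.21 in wild-type and 0.13 in *Usp15*-deficient arrays) or quantile normalization (0.51 and 0.38).

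Lsm12, an LSm-domain protein outside the U6 ring, read 8.38, 8.47 and 8.18 in wild-type cerebellum and 9.41, 9.47 and 9.30 in wild-type muscle. The difference was -1.05 (SE 0.13) and, without *Usp15*, -1.02 (SE 0.09), and all 5 probe sets were lower in cerebellum. Lsm4, a subunit of the U6 ring and of the cytoplasmic ring that takes part in decapping, was at -0.65 (SE 0.16) and -0.67 (SE 0.12). Sf3a2 of U2 snRNP was at -0.40 (SE 0.10) and -0.35 (SE 0.10), and without *Usp15*-deficient cerebellar array 2 or 3 its adjusted p in *Usp15*-deficient arrays was 0.0737 and 0.0717 (limma).

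**Figure D4:**
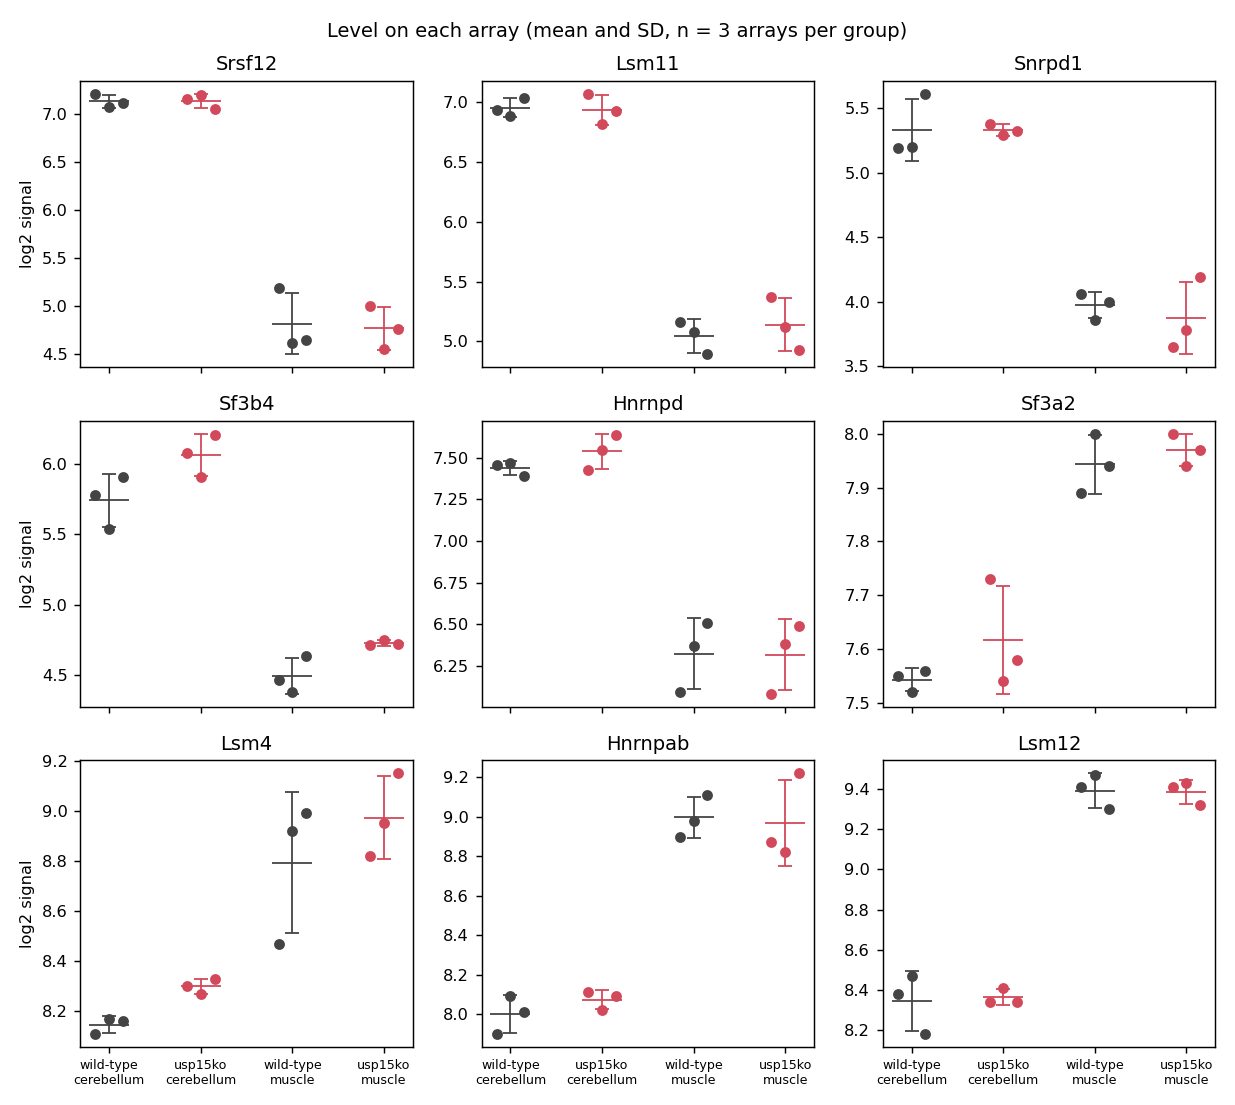
Log2 signal on each array (points) with the mean and SD (n = 3 arrays per group) of the 9 genes past the threshold in both genotypes under all 3 scalings, wild-type in grey and *Usp15*-deficient (usp15ko) in red; each panel has its own axis, which does not start at 0. The cerebellar and muscle points do not overlap in any panel, whereas wild-type and *Usp15*-deficient points overlap in most.

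Subunits of the U6 ring had tissue differences on both sides of 0 on the deposited scale. In wild-type arrays Lsm6 was 0.44 (SE 0.13) higher in cerebellum and Lsm4 lower, while Lsm2 was at 0.09 (SE 0.12), Lsm3 at -0.54 (SE 0.21, limma adjusted p = 0.0532) and Lsm8 at 0.02 (SE 0.15). Lsm1, which takes the place of Lsm8 in the cytoplasmic ring, was 0.64 (SE 0.16) higher. In wild-type arrays Lsm6 and Lsm1 passed on the deposited scale only, and they were at -0.23 and -0.035 after centring. Centring put Lsm2, Lsm3 and Lsm8 past the threshold toward muscle in wild-type, at -0.58, -1.21 and -0.65, and Lsm4 was at -1.32. Snrpb2, the U2 snRNP protein B″, was -0.77 (SE 0.12, limma adjusted p = 0.00155) in wild-type and -0.34 (SE 0.17, adjusted p = 0.122) in *Usp15*-deficient arrays, and the difference between these was 0.43 (SE 0.21, unadjusted p = 0.0645, limma adjusted p = 1). After centring (-1.01, adjusted p = 0.00294) and quantile normalization (-0.54, adjusted p = 0.0383) it passed without *Usp15* too. All 9 of its probe sets were lower in wild-type cerebellum. A second cluster, which carries Snrpb2 together with Tmem45b, was left out.

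Among paralogs, Srsf1 was 0.48 (SE 0.15) and Srsf9 0.69 (SE 0.16) higher in cerebellum in wild-type, Srsf3 0.86 (SE 0.24), and Srsf2 was at 0.10 (SE 0.17). Hnrnph1 was at 0.49 (SE 0.18) and Hnrnph2 at 0.69 (SE 0.16), Hnrnpl at 0.70 (SE 0.13) and Hnrnpa2b1 at 0.69 (SE 0.17). None of these calls held after centring in wild-type arrays. Srsf1, Srsf2 and Hnrnph1 were then below 0, with Srsf2 past the threshold toward muscle (-0.57, limma adjusted p = 0.0229). Srsf9, Hnrnph2, Hnrnpl and Hnrnpa2b1 were at 0.022, 0.022, 0.030 and 0.017, and Srsf3 was at 0.19. With quantile normalization Hnrnpl (0.54, limma adjusted p = 0.00604) and Hnrnph1 (0.45, adjusted p = 0.0330) still passed toward cerebellum in wild-type. Hnrnph2 (0.23, adjusted p = 0.323) and Hnrnpa2b1 (0.29, adjusted p = 0.191) did not. Near-identical copies of SR and hnRNP genes are common in the mouse genome, and how far probes crossed between them cannot be told from these files.

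Single probe sets were then set against their gene, as the probe set's log2 signal minus that of the gene-level cluster on the same array, since SR and hnRNP genes themselves produce alternative transcripts. Between tissues 41 of the 572 member probe sets passed in wild-type (15.2% of 193947 probe sets), 16 relatively higher in cerebellum and 25 in muscle (7.23% and 7.95%). In *Usp15*-deficient arrays 71 passed (19.7%), 29 relatively higher in cerebellum and 42 in muscle (9.38% and 10.3%). In both genotypes 8 were relatively higher in cerebellum (4.85% of all) and 20 relatively higher in muscle (5.6% of all, 10.5% in either direction), in 21 genes. The direction turned with the reference: centring gave 38 toward cerebellum and 12 toward muscle in wild-type and 46 and 21 without *Usp15*, and the median of the gene's probe sets gave 18 and 9 and, without *Usp15*, 32 and 14. Of these 28 probe sets 11 also passed relative to the median of the gene's probe sets, where 3.37% of all passed in both genotypes toward cerebellum and 3.6% toward muscle (6.96% in either direction). Where in its gene each probe set lies was not analysed here.

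Hnrnph2 probe set 5368244 had the largest difference by the mean of both genotypes, whereas in wild-type alone Hnrnpa2b1 probe set 4899256 exceeded it. It read 8.03, 7.19 and 7.12 in wild-type against 8.19, 6.99 and 8.07 in *Usp15*-deficient cerebellum, and 4.17, 4.66 and 3.82 in wild-type against 4.68, 3.74 and 4.87 in *Usp15*-deficient muscle. Tissue levels did not overlap, and relative to the gene the difference was 2.54 (SE 0.28, limma adjusted p = 0.00325) in wild-type and 1.98 (SE 0.31, adjusted p = 0.00892) in *Usp15*-deficient arrays. The other 5 probe sets of Hnrnph2 were higher in cerebellum by 0.01 to 1.39 on the raw scale in wild-type, so that this 1, at 3.23, stood apart. Probe set 4941593, which carried the genotype change, was the lowest of them, at 0.01.

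Hnrnpa2b1, the hnRNP A2/B1 protein, had a similar probe set, 4899256. It read 4.72, 4.08 and 4.91 in wild-type cerebellum and 1.34, 1.43 and 0.97 in wild-type muscle, among the dim values of these arrays. Relative to the gene it was 2.64 (SE 0.22) higher in wild-type and 1.46 (SE 0.19) in *Usp15*-deficient cerebellum. Another Hnrnpa2b1 probe set, 5078012, had relative differences of -1.03 and -0.92, but was at -0.31 and -0.24 relative to the median of the probe sets and passed there in neither genotype. Srsf1 probe set 5357764 was relatively higher in cerebellum by 1.81 (SE 0.38) and 2.11 (SE 0.19), Hnrnph1 probe set 4380565 by 2.33 (SE 0.40) and 1.58 (SE 0.27), and Srsf11 probe set 5200383 by 1.68 (SE 0.22) and 1.67 (SE 0.31). These 3 were also dim in muscle, at or below 3.25 on every array. Whether the muscle values of these probe sets and of 4899256 stood above background was not tested, and their differences may be bounds rather than sizes. Lsm2 probe set 4639154 was relatively higher in cerebellum by 1.13 (SE 0.23) and 0.95 (SE 0.13), but did not pass in both genotypes relative to the median of the probe sets.

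Lsm11 probe set 4602057 changed less between tissues than its gene. It read 7.39, 7.53 and 7.53 in wild-type cerebellum and 7.06, 6.79 and 6.42 in wild-type muscle, still without overlap. Its relative difference was -1.19 (SE 0.16, limma adjusted p = 0.00595) in wild-type and -0.99 (SE 0.14, adjusted p = 0.00662) without *Usp15*, and it also passed against the median of the probe sets.

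Srsf3, the smallest SR protein, had a probe set that ran against the rest of the gene. Of its 14 probe sets 13 were higher in wild-type cerebellum, and 4724515 alone was lower, at -0.80. It read 8.16, 8.20 and 8.10 in wild-type cerebellum and 8.89, 9.03 and 8.95 in wild-type muscle, and 8.25, 8.01 and 8.23 and 9.46, 8.81 and 8.81 without *Usp15*. Relative to the gene the difference was -1.66 (SE 0.27, limma adjusted p = 0.0115) in wild-type and -1.93 (SE 0.39, adjusted p = 0.0198) in *Usp15*-deficient arrays, and -1.25 and -1.38 relative to the median of the probe sets, past the threshold in both. Probe set 5511495 of Sf3b4 had relative differences of -2.16 (SE 0.32) and -2.34 (SE 0.29). It read 7.87, 8.52 and 9.05 in wild-type cerebellum and 9.02, 9.58 and 9.55 in wild-type muscle. Whether it reads the same locus as the cluster of that name was not tested.

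**Figure D5:**
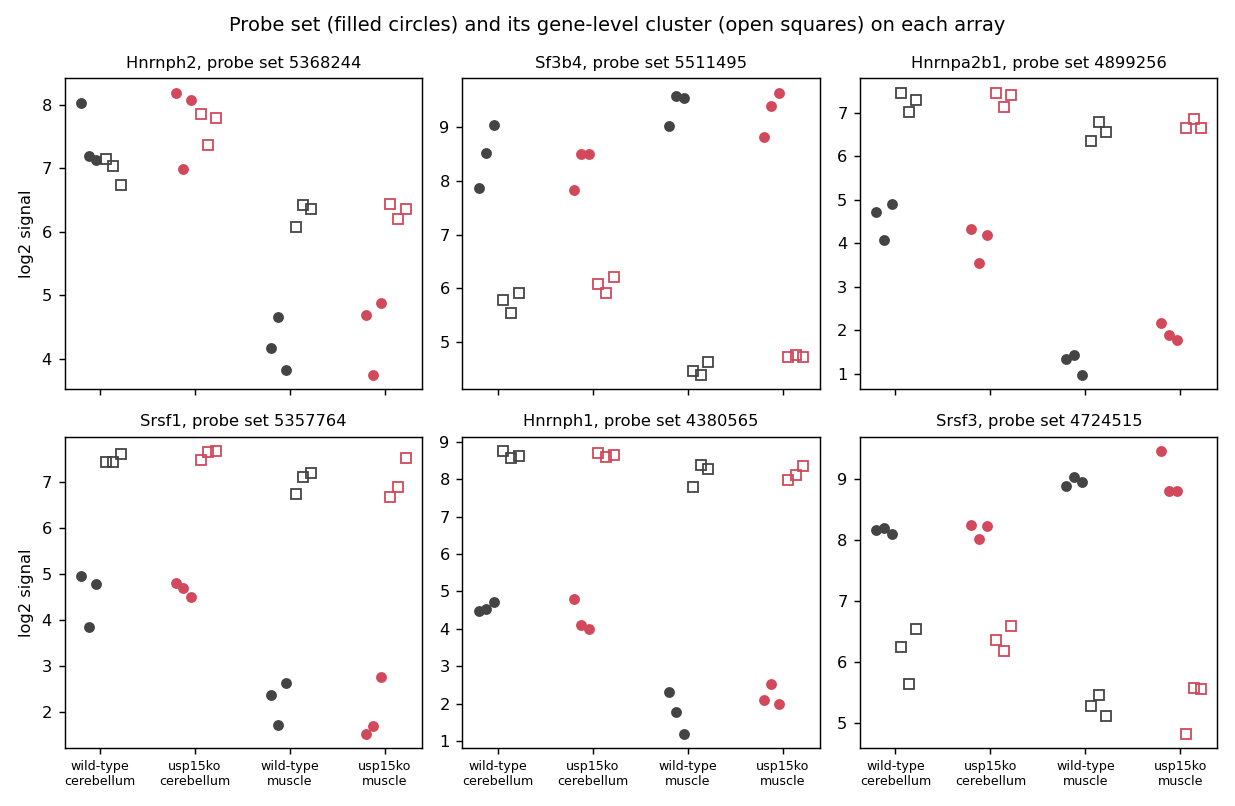
Log2 signal of 6 probe sets (filled circles) and of their gene-level clusters (open squares) on each of the 3 arrays of the 4 groups, wild-type in grey and *Usp15*-deficient (usp15ko) in red; each panel has its own axis, which does not start at 0. The circles of Hnrnph2, Hnrnpa2b1, Srsf1 and Hnrnph1 fall from cerebellum to muscle by more than the squares, and those of Srsf3 and Sf3b4 rise while the squares fall.

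By genotype 0 member probe sets passed in cerebellum (0.000516% of all, 1 probe set) and 0 in muscle (0.00103% of all, 2 probe sets), with limma, while 13 and 20 of 572 had an unadjusted p under 0.05 (3.55% and 3.77% of all). Snrpa1 held the 2 smallest p in cerebellum, in opposite directions. Its probe set 5590802 read 3.02, 2.90 and 2.79 in wild-type against 3.97, 4.05 and 4.05 in *Usp15*-deficient cerebellum, and was 0.85 (SE 0.16, unadjusted p = 0.00155, limma adjusted p = 1) higher relative to the gene. These values lay below the exon-level medians of the cerebellar arrays, 6.55 to 6.64, and whether they stood above background was not tested. Snrpa1 probe set 5049966 read 8.0, 8.18 and 8.08 against 7.84, 7.79 and 7.80, at -0.55 (SE 0.13, unadjusted p = 0.00428, limma). In neither did the genotypes overlap. In muscle Hnrnpk probe set 4492965 had the smallest p, with 4.22, 4.18 and 5.17 in wild-type against 3.14, 3.46 and 3.86 without *Usp15* (relative difference -1.05, SE 0.24, unadjusted p = 0.00466, limma). Its values also lay below the exon-level medians of the muscle arrays, 5.98 to 6.14. Next in p, relative to the gene, were Hnrnph2 probe set 5088169 in cerebellum (-0.83, SE 0.25) and, in muscle, Sf3a3 probe set 5461716 (0.68, SE 0.16) and Srsf4 probe set 4574592 (-0.62, SE 0.17). The signal of 5088169 itself changed by -0.13, while the Hnrnph2 cluster subtracted from it changed by 0.70.

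Other genes of the spliceosome were counted for comparison, from a list of 88 in 6 groups, of which 80 were measured. By genotype 0 passed in either tissue (limma), and 3 had an unadjusted p under 0.05 in cerebellum (Rbm17, Srpk1 and Wdr77) and 0 in muscle. On the deposited scale, the only one counted by genotype for these genes, cerebellar means were higher without *Usp15* for 73 and lower for 7. Their median difference was 0.11 (61.6% of all clusters higher, median 0.04). In muscle 50 were higher and 30 lower, with a median of 0.05 (54.1% of all clusters higher, median 0.01). Between tissues 28 were higher in cerebellum and 6 in muscle in both genotypes on the deposited scale (48.8% and 11.5% of all clusters), and 6 and 33 after centring (16.3% and 25.5% of all clusters).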

How the data were processed

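Total RNA of cerebellum and skeletal muscle was hybridised to 12 arrays, 3 per genotype and tissue. The values deposited by the authors are log2 signals of transcript clusters (gene level) and of probe sets (exon level) of the same 12 arrays; the sources used here name no normalization, software or genome build. They were used as deposited. The number of arrays limits the precision.

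Two-sided comparisons used lmFit and eBayes of limma 3.58.1 (R 4.3.3), and p was adjusted by Benjamini-Hochberg over all 23332 clusters or 193947 probe sets with a cluster of their symbol (threshold 0.05), *Usp15*-deficient minus wild-type or cerebellum minus muscle. The interaction used all 12 arrays. An exact test of 3 against 3 cannot give a p below 0.1. The fit was tested on simulated data in which many features were changed at once. Large changes of clusters were mostly recovered, whereas a small share of changed probe sets among many unchanged ones did not pass the adjustment. A change of 1 cluster alone was not simulated, and *Usp15* in muscle, at -1.87, missed the threshold (limma adjusted p = 0.273). A count of 0 at either level can thus leave isolated changes undetected. Alternatives were each array left out, the replicate number as a block, quantile normalization, centring, a trended and robust prior (statmod 1.5.0), the methods' t-test, a filter on the dimmest 25%, a fit of all 12 arrays, and exon use relative to the median of the gene's probe sets. Leaving out 562 probe sets equal to their cluster on all arrays or all but 1 was chosen after seeing the data.

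Clusters were named from the platform annotation: 14996 have 1 symbol, 1019 several and 7317 none. Old exon-level symbols (2145) were renamed through single synonyms of the GRCm38.p6 annotation. The members and lists were chosen with earlier results of these data known. Named were the 5 higher and 5 lower members of smallest p by genotype, the 8 members highest in each tissue among those past the threshold in both genotypes (only 4 passed in muscle), listed paralogs, and the probe sets of largest difference; other members were named for their role. In cerebellum same-numbered arrays of the genotypes deviated together (correlations 0.218, 0.203 and 0.103 over clusters), and the block changed no call there.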

Additional observations from a re-analysis of the deposited data

How the results depend on the processing

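By genotype 0 members were called at either level under every alternative run. The count of higher members without 1 array ran from 32 to 44 in cerebellum, from 13 to 37 in muscle and from 20 to 42 for the interaction. Counts of members between tissues rested on the scaling. With quantile normalization 11 members were higher in wild-type cerebellum, 10 in wild-type muscle, 15 in *Usp15*-deficient cerebellum and 10 in *Usp15*-deficient muscle, and with arrays centred on their median 5, 16, 7 and 15. Without 1 array, the wild-type count was 24 to 30 (19 to 25 and 5 to 7 by direction) and the *Usp15*-deficient 27 to 32 (24 to 28 and 3 to 5).

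Exon use between tissues, as total, cerebellum and muscle counts, moved most. In wild-type arrays the replicate block gave 20, 8 and 12, the trended and robust prior 74, 26 and 48, and the fit of all 12 arrays 86, 35 and 51. The methods' t-test gave 27 in total and 15 in muscle, the median of the probe sets as reference 27 and 9, and centring 38 in cerebellum and 12 in muscle. In *Usp15*-deficient arrays the replicate block gave 32, 17 and 15, the methods' t-test 34, 10 and 24, the trended prior 120 in total and 79 in muscle, and the median as reference 46 and 14. Centring gave 46 in cerebellum and 21 in muscle, quantile normalization 27 in muscle, and leaving out the dimmest 25% 19 in cerebellum. Without 1 array the counts were 15 to 25 (6 to 13 and 8 to 16) in wild-type and 25 to 60 (11 to 35 and 10 to 25) in *Usp15*-deficient arrays. The causes were not tested.

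Only the cerebellar genotype comparison at the gene level had all 3 correlations of same-numbered arrays above 0.1, the value taken to mark a pairing. For muscle the gene-level correlations by genotype, in order of array number, came to 0.305, 0.064 and 0.160. Exon use by genotype gave 0.133, 0.138 and 0.067 for the cerebellar arrays. Its muscle values reached 0.239 at most. Between tissues no correlation exceeded 0.101. The block gave 29 and 31 members between tissues at the gene level. It changed no genotype call.

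Each single result was fitted again under each alternative, and a result counts once per alternative here. Of these fits, 1253 kept direction and side of the threshold, 81 no longer passed it, 6 newly passed it and 25 changed sign. After centring the tissue differences were -0.19 and -0.10 for Srsf1, -0.57 and -0.45 for Srsf2, -0.19 and -0.16 for Hnrnph1 (wild-type, *Usp15*-deficient), -0.37 for U2af2 in wild-type (-0.15 with quantile normalization), and -0.057 for Srsf9, -0.045 for Hnrnpa2b1 and -0.056 for Hnrnpl without *Usp15*. With 1 array left out, small differences spanned 0: by genotype in cerebellum Hnrnpc from -0.32 to 0.068, Lsm2 from -0.085 to 0.0070, Lsm11 from -0.086 to 0.040, Hnrnpul1 from -0.041 to 0.016 and Snrpd1 from -0.076 to 0.13, in muscle Snrpd1 from -0.26 to 0.010 and Sf3a3 from -0.23 to 0.014, in the interaction Hnrnpl from -0.17 to 0.021 and Hnrnpc from -0.39 to 0.081, and between wild-type tissues Srsf2 from -0.072 to 0.20.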
